A study of Arabidopsis thaliana with 9 samples.

Results

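The 4 members of the basic helix-loop-helix (bHLH) family of transcription factors examined in shoots of Arabidopsis thaliana were bHLH34, bHLH104, bHLH115 and bHLH121. They were taken as the ATH1 probe sets of a single named gene whose symbol in the platform annotation starts with MYB, AtMYB or bHLH followed by digits, with BHLH101 left aside. The rule gave 4 of the 13350 genes named by 1 probe set or more. All 4 were bHLH genes and 0 symbols in the annotation used here had the MYB form, so the set holds no numbered MYB gene and is described as bHLH genes only. Each of the 4 was measured by 1 probe set.

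bHLH proteins bind DNA as dimers, mostly at E-box motifs. The 4 genes belong to related subgroups that act at the top of the iron deficiency response of plants. bHLH34, bHLH104 and bHLH115 are activators of subgroup IVc, and with their close relative ILR3 they switch on the genes of the lower tier, among them BHLH101 and PYE. bHLH121 belongs to subgroup IVb, like PYE, and acts as a dimer with the IVc proteins. The proteins of several IVc members are marked for breakdown by the iron-binding ubiquitin ligase BTS, so that part of the control of this tier lies outside transcript levels.

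The 3 genotypes were hybridized to 3 arrays each, a triple mutant in HAP5 genes, a mutant in CONSTANS and wild type. HAP5 genes code for NF-YC proteins, subunits of the complex that binds CCAAT motifs, and the triple mutant carries T-DNA knockouts in a Col-0 background. The constans mutant, from a line labelled co-SAIL, lacks a transcription factor of photoperiodic flowering, and no background is stated for it. Wild type was Col-1, so genotype and background cannot be told apart, and each mutant is 1 line. Plants of all 3 genotypes were grown for 10 days on fertilized soil mix in 16 h days (8 h nights) at 22 °C, and the whole part above ground was collected 14 h after lights on. The labels record no iron treatment. The labels leave it unstated if plants of a genotype were grown apart, so a p-value reflects no more than the spread among these samples, which may be technical.

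Values are MAS5 signals on a linear scale, scaled by the authors to a common trimmed mean, and the number of arrays limits their precision. Median signals were 33.1 to 37.1 over the 9 arrays. The 25S ribosomal RNA control ran from 15.9 to 42.4 in the triple mutant, from 56.5 to 1152 in the constans mutant and from 22.6 to 418 in wild type. The ratio of the GAPDH control at its 3′ and 5′ ends was 1.80 to 4.46, and that of the actin control 16.9 to 33.4. Of 15 green shoot markers 3 had a named probe set, the photosystem II antenna genes LHCB4.1, LHCB4.2 and LHCB4.3, with signals of 675 to 6126. Of 15 root markers 3 had one, and their summed signal was 256 to 293 in the constans mutant, 201 to 225 in wild type and 190 to 229 in the triple mutant. Nearly all of that sum was PYK10, a beta-glucosidase gene of roots and hypocotyls, at 174 to 286, while the root hair genes EXPA7 and EXPA18 stayed at or below 15.0. Its part in the values below was not tested. In whole shoots, fewer cells of a type and less RNA per cell cannot be told apart.

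All 4 genes lay above the signal of 18.65 that a probe set had to reach in 1 genotype to be tested, in each of the 3 genotypes, with 49.0 as the lowest geometric mean. None of the 4 passed limma's test at an adjusted p of 0.05 in any of the 3 comparisons. An unadjusted p under 0.05 was met by 0 of the 4 in each comparison, and in each the arrays of the genotypes compared overlapped for all 4. The 4 genes are described first by their levels and then by comparison.

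bHLH34, an activator of subgroup IVc (gene AT3G23210, probe set 257916_at), had signals of 60.3, 57.2 and 66.1 in wild type, 43.2, 66.1 and 41.1 in constans arrays and 71.2, 68.0 and 50.0 in the triple mutant. The means were 61.2 ± 4.49 (SD, n = 3) in wild type, 50.1 ± 13.9 in the constans line and 63.1 ± 11.4 in the triple mutant. Of the constans arrays 2 lay below every wild-type array and the other lay at the top of the wild-type range, so the genotypes overlapped. The order was triple mutant, wild type, constans mutant, and no neighbours in it differed beyond their spread.

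bHLH104, of the same subgroup (AT4G14410, 245331_at), had signals of 150, 152 and 183 in wild type, 142, 199 and 165 in constans arrays and 166, 183 and 142 in the triple mutant. The means of 162 ± 18.4, 169 ± 28.7 and 164 ± 20.7 (SD, n = 3) lay closer together than the arrays of any one genotype. The lowest and the highest array were both from the constans mutant.

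bHLH115, the third IVc member of the set (AT1G51070, 245746_at), had signals of 218, 228 and 157 in wild type, 214, 208 and 179 in constans arrays and 215, 211 and 206 in the triple mutant. The means were 201 ± 38.4, 200 ± 19.1 and 211 ± 4.58 (SD, n = 3). The 3 triple mutant arrays were nearly equal, and wild type held both the highest and the lowest array.

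bHLH121, the IVb partner of these proteins (AT3G19860, 257990_at), had signals of 119, 116 and 100 in wild type, 126, 88.2 and 102 in constans arrays and 117, 125 and 106 in the triple mutant. The means were 112 ± 10.2, 105 ± 19.2 and 116 ± 9.79 (SD, n = 3). The constans arrays again spanned the values of the other genotypes, with 1 above all of them and 1 below. From high to low the genotype means ran constans mutant, triple mutant, wild type in bHLH104, triple mutant, wild type, constans mutant in bHLH115 and bHLH121, and no neighbours in these orders differed beyond their spread. For bHLH115 the geometric means put the constans mutant (199.7) above wild type (198.5) instead. The plot of signals by array shows this overlap for each gene.

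**Figure D1:**
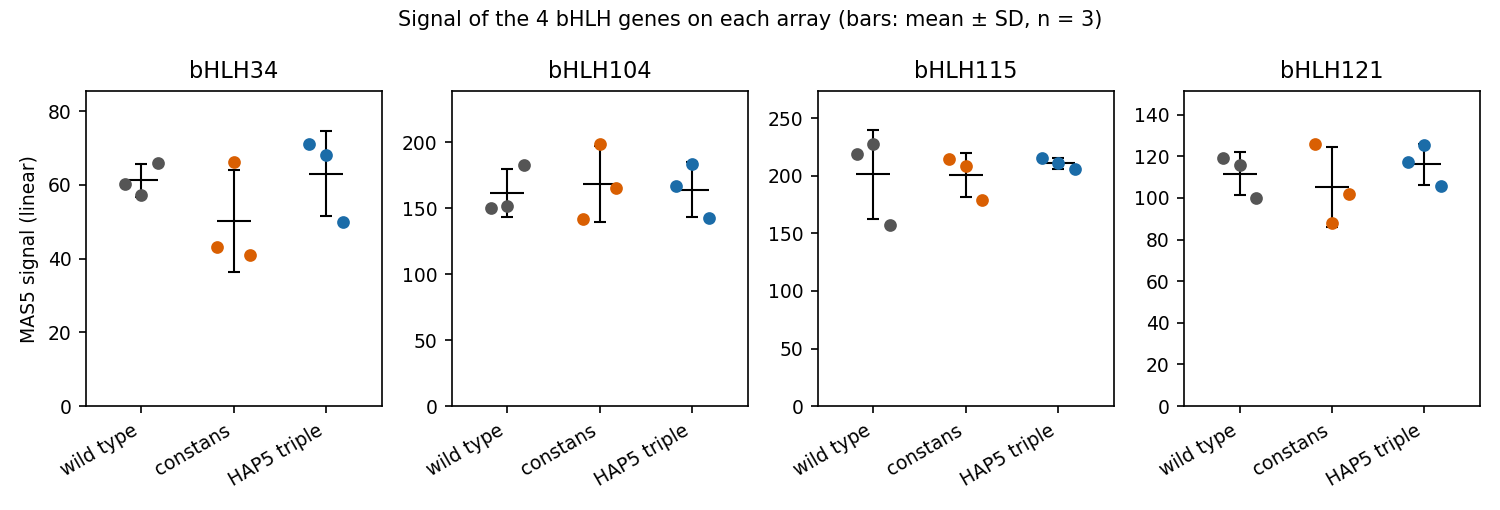
MAS5 signal (linear axis from 0) of the 4 bHLH genes on each array, with 1 panel per gene and 1 point per array. Horizontal bars are means and vertical bars SD (n = 3 arrays per genotype). The genotypes overlap in every panel, and bHLH34 has the lowest constans mean relative to wild type (50.1 against 61.2).

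The spread within genotypes was close to that of the array as a whole for 3 of the genes. On the log2 scale the pooled SD within genotypes was 0.20 for bHLH104, 0.19 for bHLH115 and 0.18 for bHLH121, beside a median of 0.19 over all 14173 probe sets tested. It was larger for bHLH34, at 0.28, which exceeded that of 76.5% of them. Genotype accounted for 1.76% of the variance of log2 signal in bHLH104, 5.93% in bHLH115, 15.3% in bHLH121 and 32.6% in bHLH34, and for a median of 28.6% over all probe sets tested. These shares were not corrected for the number of groups, so spread among arrays alone also yields a share. From the lowest to the highest of the 9 arrays the signal differed 1.73-fold in bHLH34 and 1.40-fold to 1.45-fold in the other 3 genes.

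The first comparison, of the triple mutant with wild type, asks which transcript levels differ between these 2 lines, whose backgrounds also differ. For bHLH34 the log2 change was 0.029 ± 0.20 (SE, adjusted p = 0.993). It was 0.019 ± 0.14 for bHLH104 (0.994), 0.086 ± 0.14 for bHLH115 (0.956) and 0.058 ± 0.14 for bHLH121 (0.977). All adjusted p here are Benjamini-Hochberg values from limma over the 14173 probe sets tested. None of the 4 was called, where 0.0917% of all probe sets were, and an unadjusted p under 0.05 was met by 0 of 4 and by 6.51% of all. The 4 changes had a median of 0.04, and the median over all probe sets was 0.0065. The arrays of the triple mutant and wild type overlapped in all 4, and they did not overlap in 14.1% of all probe sets tested.

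The second, of the constans mutant with wild type, asks the same of the constans line, for which no background is stated. bHLH34 had the widest difference, a log2 change of -0.32 ± 0.20 (0.802-fold, adjusted p = 0.599). Those of bHLH104, bHLH115 and bHLH121 were 0.053 ± 0.14 (0.936), 0.0087 ± 0.14 (0.991) and -0.096 ± 0.14 (0.872). None was called, against 1.40% of all probe sets, and 0 of 4 met an unadjusted p under 0.05, against 11.3% of all. The median change was -0.044 for the 4 genes and -0.0020 over all probe sets. The genotypes did not overlap in 0 of 4 genes and in 14.4% of all probe sets. The arrays with the most 25S signal were constans 2 and 3, at 1152 and 1079, while constans 1 stood at 56.5. bHLH34 stood at 66.1 in constans 2 and 41.1 in constans 3, the highest and the lowest constans value.

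The mutants were set against each other as a test of where they differ, with the same arrays that enter the comparisons above. bHLH34 was 1.27-fold higher in the triple mutant by its geometric mean, a log2 difference of 0.35 ± 0.20 that did not pass (adjusted p = 0.379). The differences were -0.033 ± 0.14 for bHLH104 (0.931), 0.078 ± 0.14 for bHLH115 (0.814) and 0.15 ± 0.14 for bHLH121 (0.614). None of the 4 was called, where 3.38% of all probe sets were, 0 of 4 met an unadjusted p under 0.05, where 17.7% did, and 0 of 4 had genotypes that did not overlap, where 22.6% did. The median difference was 0.12 for the 4 genes and -5.2e-05 over all probe sets.

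A missed threshold does not show that the levels were equal, so the intervals are given. Over the 12 changes, each 95% interval held 0 and none held a 2-fold change in either direction. Of these, 2 held a 1.5-fold change, both of bHLH34. They ran from -40.1% to 7.25% for the constans mutant relative to wild type and from -4.87% to 70.2% for the triple mutant relative to the constans mutant. The other 10 intervals lay between -24.3% and 37.6%. For bHLH104, the interval of the triple mutant relative to wild type was -18.1% to 25.4%, and for bHLH115 it was -13.4% to 30.1%. These intervals are single ones, not widened for the number of genes. They are drawn in the plot of changes with their intervals, beside 3 bHLH genes of the same pathway.

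**Figure D2:**
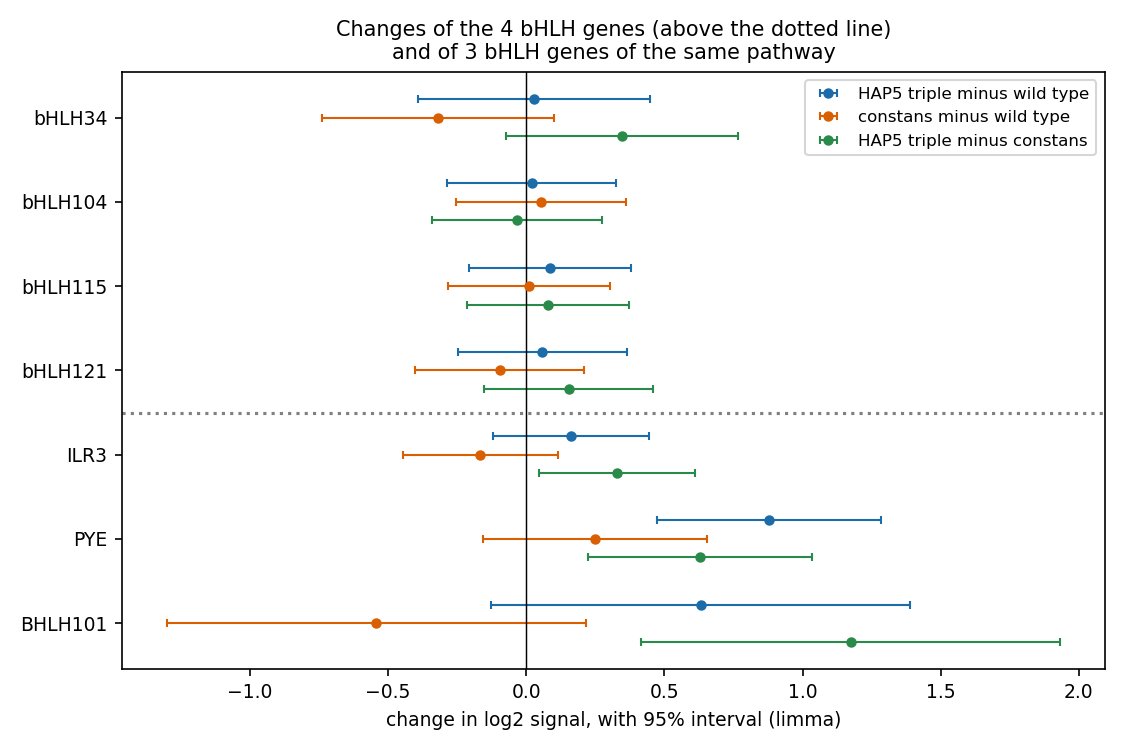
Change in log2 signal with its 95% interval from limma (horizontal axis) for the 4 bHLH genes above the dotted line and ILR3, PYE and BHLH101 below it, in the 3 comparisons (colours). Every interval above the line crosses 0. Below it 4 intervals lie to the right of 0, although none of these passed after adjustment. They are those of ILR3, PYE and BHLH101 between the mutants and that of PYE in the triple mutant against wild type. BHLH101 reached the signal needed for testing in the triple mutant alone.

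The next genes of the pathway come from a list of 37 iron deficiency genes, of which ILR3, PYE and BHLH101 had a named probe set and were tested. None passed in any comparison. ILR3, the fourth IVc gene, had signals of 357 to 391 in the triple mutant, 267 to 349 in the constans mutant and 282 to 392 in wild type. The triple mutant arrays all lay above the constans arrays, with a log2 difference of 0.33 ± 0.13 (adjusted p = 0.212). A fit with log2 25S as covariate put this difference at -0.021, the lowest of 22 alternative fits. The 25S signals of the mutants did not overlap (15.9 to 42.4 and 56.5 to 1152), so 25S and genotype cannot be told apart here. PYE, a IVb repressor in the lower tier, stood at 90.8, 101 and 72.3 in the triple mutant and at 55.5, 47.9 and 40.4 in wild type, a log2 change of 0.88 ± 0.19 with an adjusted p of 0.212. These arrays did not overlap, and the change passed in 2 of 22 alternative fits, with array weights and with the replicate number as a block. BHLH101, an activator of iron uptake in the lower tier, was dim, at 20.4, 39.9 and 19.2 in the triple mutant and 9.31, 15.5 and 9.47 in the constans mutant, with 14.0, 20.4 and 14.8 in wild type. Between the mutants its log2 difference was 1.17 ± 0.35 (adjusted p = 0.0909). That difference passed in 3 of 21 alternative fits. The median change of the 3 genes against wild type was 0.63 for the HAP5 mutant, which is the value of BHLH101 itself (adjusted p = 0.832, 0.29 to 0.98 over the alternative fits), and -0.17 for the constans mutant, that of ILR3.

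AT1G47400, a gene for a short peptide that signals iron deficiency, was taken up because its values were known. Its signal rose in the triple mutant, from 385, 283 and 270 in wild type to 622, 834 and 596, a log2 change of 1.13 ± 0.18 (adjusted p = 0.0309). In the constans mutant the change was -0.24 ± 0.18 (0.691). Between the mutants the log2 difference was 1.37 ± 0.18 (adjusted p = 5.02e-04), and this call held in 21 of 22 alternative fits, all but that with the 25S covariate. Over the 22 alternative fits the change in the triple mutant against wild type was 0.91 to 1.29. That call held in 14 of them, with adjusted p of 3.07e-03 to 0.322 over all. It ended with no filter on dim probe sets, with no trend, with the 25S covariate, without any 1 triple mutant array, and without wild type 2 or 3. The 4 upstream bHLH genes had changes of 0.019 to 0.086 in the same comparison.

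Among 85 bHLH genes under names of other kinds, 16 had a named probe set and 11 were tested, ILR3 and PYE among them. None of the 11 passed in any comparison. Their median change against wild type was 0.0094 for the HAP5 mutant and -0.11 for the constans mutant, and 0.15 between the mutants. MYC3, an activator of jasmonate responses, had a mean signal of 117 in wild type, 108 in the constans mutant and 120 in the triple mutant. SPCH, which starts the stomatal lineage, had 66.0, 60.4 and 63.0. Of 50 MYB and MYB-related genes under names of other kinds 3 had a named probe set and were tested, AT5G47390, MYBC1 and TRY, and none passed. In the annotation used here 8730 of 22746 probe sets had no name and 503 named several genes. A gene without a named probe set may therefore still be on the array. AT5G47390, given in RefSeq as a MYB gene of hypocotyl elongation, had signals of 189 to 222 in the triple mutant and 131 to 176 in the constans mutant, a log2 difference of 0.45 ± 0.16 with an adjusted p of 0.141 that passed in 2 of 22 alternative fits.

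The arrays of 1 genotype differed in their 25S control, and the deviations of each bHLH gene from its genotype mean were set against those of the log2 25S signal over the 9 arrays. For bHLH104 Pearson r was 0.718 (two-sided exact permutation p = 0.0833 over the 216 orders within genotypes, 0.167 adjusted over the 4 genes). Its Spearman rho was 0.850 (two-sided exact permutation p = 0.0185, adjusted 0.0741). bHLH121 ran the other way, with r = -0.790 (exact permutation p = 0.0694, adjusted 0.167) and rho = -0.783 (0.0648, adjusted 0.130). For bHLH115 r was -0.616 and rho -0.517, and for bHLH34 they were 0.420 and 0.450, with exact permutation p of 0.250 and 0.296, and of 0.435 and 0.250. None passed after adjustment. The 2 arrays whose 25S deviation from the genotype mean lay farthest from the median deviation were then taken out. They are not the arrays of highest 25S signal. Without them r was 0.550 for bHLH104, -0.544 for bHLH121, -0.576 for bHLH115 and 0.412 for bHLH34.

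**Figure D3:**
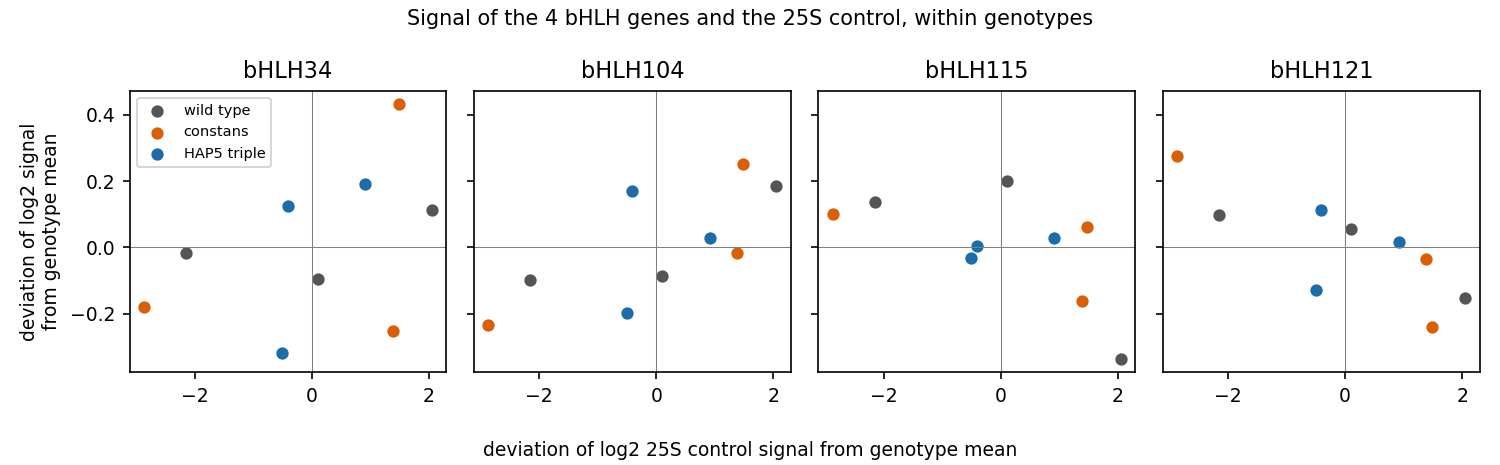
Deviation of each array's log2 signal from its genotype mean (vertical axis) against that of its log2 25S ribosomal RNA control signal (horizontal axis), 1 panel per bHLH gene and 1 point per array, coloured by genotype (n = 9). bHLH104 slopes upward (r = 0.718) and bHLH121 downward (r = -0.790), and neither relation passed after adjustment over the 4 genes.

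The 4 genes were also compared in pairs by the same deviations, 6 pairs in all. bHLH34 and bHLH104 had the highest r, 0.834 (exact permutation p = 0.0417, two-sided, 0.250 adjusted over the 6 pairs), with a rho of 0.783 (0.0602, adjusted 0.361). With the 2 arrays whose bHLH104 deviation lay farthest from the median deviation taken out, r was 0.747. bHLH115 and bHLH121 had r = 0.485 (exact permutation p = 0.269, adjusted 0.521) and rho = 0.500 (0.282, adjusted 0.565). The other 4 pairs had r of -0.558 to 0.019 with exact permutation p of 0.259 to 0.968, and rho of -0.567 to 0.117. Taking out 2 arrays in the same way, by the higher-numbered gene of the pair, moved r in these pairs too. For bHLH121 it went from 0.485 to 0.752 with bHLH115, from -0.558 to 0.0355 with bHLH104 and from -0.364 to 0.334 with bHLH34. For bHLH115 it went from -0.398 to -0.215 with bHLH104 and from 0.019 to -0.055 with bHLH34.

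The direction of most of the small changes depended on the arrays and on the fit. Among 22 alternative fits the sign of the bHLH34 change in the constans mutant was negative in all, at -0.53 to -0.19, and that between the mutants was positive in all, at 0.22 to 0.60. Many of these fits, such as those with no trend or another filter, returned the reported change itself. Such fits alter the error or the adjusted p and could not turn a sign. Without constans 2 the first of these was -0.53 and the second 0.56, and without constans 3 they were -0.19 and 0.22. Each of the other 10 changes turned its sign in 2 to 6 of the 22. None of the 264 values passed, with 0.109 as the lowest adjusted p. The plot of changes under each alternative shows bHLH34 apart from 0 in these 2 comparisons and the other 3 genes on both sides of it.

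**Figure D4:**
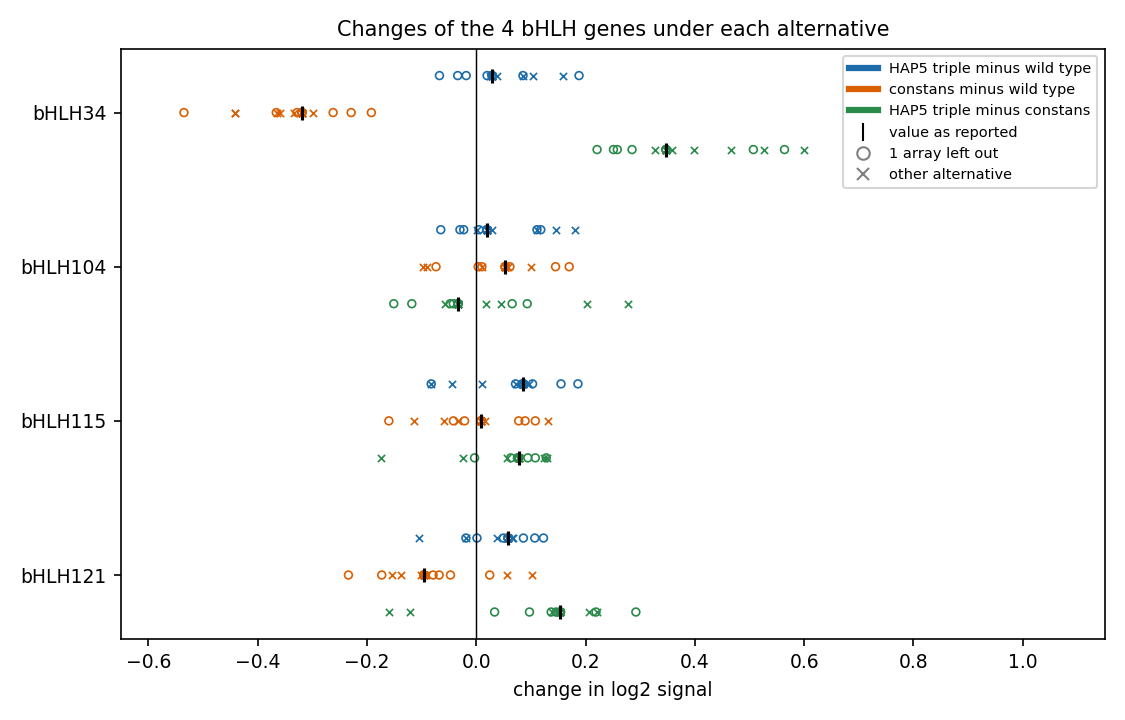
Change in log2 signal (horizontal axis) of the 4 bHLH genes in the 3 comparisons (colours), as reported (black bars), with 1 array left out (circles) and under other alternatives (crosses). The values of bHLH34 in the comparisons with the constans mutant stay on one side of 0 (-0.53 to -0.19 and 0.22 to 0.60), and each of the other 10 changes has values on both sides.

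Lists of enzymes and signalling genes that MYB and bHLH proteins are known to control had few named probe sets. Of 5 flavonoid and anthocyanin genes, 1 phenylpropanoid gene and 2 jasmonate genes tested, none passed in any comparison. Of 3 glucosinolate genes, 2 were higher in the triple mutant than in the constans mutant, a comparison in which 3.38% of all probe sets passed. These were BCAT4, of methionine chain elongation, at 1012 against 676 (log2 difference 0.58 ± 0.11, adjusted p = 8.37e-03), and UGT74B1, which adds the sugar of glucosinolates, at 288 against 194 (0.57 ± 0.12, adjusted p = 0.0155). Against wild type neither gene passed in the reported fit. The log2 changes were 0.16 and 0.080 in the HAP5 mutant (adjusted p = 0.875 and 0.953) and -0.42 and -0.49 in the constans mutant (0.0879 and 0.0585). Over 22 alternative fits the constans change passed in 3 for each gene, and the HAP5 change in 0. Each call between the mutants held in 17 of 22 alternative fits, over which the difference was 0.44 to 0.66 for BCAT4 and 0.54 to 0.74 for UGT74B1. That of BCAT4 ended with no filter on dim probe sets, with the 25S covariate, without the 3 arrays of highest 25S signal, and without triple mutant 2 or constans 3, and that of UGT74B1 with no filter, with no trend, and without triple mutant 2 or 3 or constans 3. The cuticle list had 1 probe set, which was too dim to be tested, and no gene of the list of CCAAT-binding complex subunits was analysed here.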

How the data were processed

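The data were 9 Affymetrix ATH1 arrays of biotin-labelled total RNA, 3 per genotype. The deposited values are intensity values, linear MAS5 signals, and MAS5 and GCOS are named with no version, per the submitters' processing notes. The trimmed mean was 100.01 on every array and no detection calls were used. The 64 control probe sets of 22810 were left out, signals under the pooled 10th percentile (1.029) were raised to that value before taking log2. A probe set was tested when the geometric mean of 1 genotype reached the 40th percentile of such means (18.65), which left 14173 of 22746.

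One limma model (lmFit and eBayes, limma 3.58.1 in R 4.3.3) covered all 9 arrays, with an intensity trend, no covariate and 6 residual degrees of freedom. Benjamini-Hochberg adjustment ran over all tested probe sets within each of 3 comparisons, with a threshold of 0.05. The fit was tested on simulated data. Relations within genotypes were tested by exact permutation.

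Of 13513 probe sets with 1 gene, 13436 matched the TAIR10.1 gene table, which was used for names only because the files name no build. No sequences are shown. The members, the 9 gene lists and the alternatives were chosen with earlier results of these data known. The matches of 3 list symbols were dropped because a symbol named another gene. The naming rule allowed every member, called list members and up to 4 tested members a list, in order of mean signal. AT1G47400 and SPCH fall outside it. Figures were drawn with matplotlib 3.10.9 from tables read with pandas 2.3.3.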

Additional observations from a re-analysis of the deposited data

How the results depend on the processing

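The count of called bHLH genes was 0 in each comparison under all 23 alternatives, while the count over all probe sets ran from 4 to 99 in the triple mutant against wild type, 37 to 275 in the constans mutant, also against wild type, and 132 to 1192 between the mutants. Of 264 alternative values of the 12 log2 changes, 35 had the opposite sign and none passed, and the cause was not tested. The 264 include many from fits that return the reported change itself, where no sign could turn. With the 25S covariate, the sign held for bHLH34, at 0.159, -0.441 and 0.60 in the triple mutant, the constans mutant and between the mutants. It held too for bHLH104 in the triple mutant (0.180) and bHLH115 in the constans mutant (0.131). The 25S signals of the mutants did not overlap, so 25S and genotype cannot be told apart between them. In the lists that follow, up to array weights, only changes whose sign turned are given. With this covariate, bHLH104 was -0.098 in the constans mutant and 0.277 between the mutants. bHLH115 was -0.044 in the triple mutant and -0.175 between the mutants. bHLH121 was 0.056, -0.104 and -0.160 in the constans mutant, the triple mutant and between the mutants. Without the 3 arrays of highest 25S signal, where 1 constans array remained and was assumed to vary like the others, the values in the same order were -0.091 and 0.202 for bHLH104, -0.083 and -0.024 for bHLH115, with -0.059 in the constans mutant, and 0.102, -0.019 and -0.121 for bHLH121. Median centring gave 0.019 for bHLH104 between the mutants and -0.033 for bHLH115 in the constans mutant, and array weights gave 0.045 and -0.114 for the same. With 1 array left out, the changes in the triple mutant, in the constans mutant and between the mutants ran from -0.067 to 0.188, -0.535 to -0.192 and 0.221 to 0.564 for bHLH34, from -0.065 to 0.118, -0.074 to 0.170 and -0.151 to 0.093 for bHLH104, from -0.083 to 0.186, -0.160 to 0.108 and -0.0032 to 0.128 for bHLH115, and from -0.019 to 0.123, -0.234 to 0.025 and 0.034 to 0.292 for bHLH121. Same-numbered arrays deviated together with correlations of -0.038 to 0.227, and 4 of the 9 arrays correlated best with their own number, so the numbers were not taken as pairs. The replicate block left the count at 0 in each comparison. Having 3 arrays per genotype limits the precision.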
